A study of Arabidopsis thaliana with 6 samples.

Results

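The BGLU genes of Arabidopsis thaliana encode beta-glucosidases of glycoside hydrolase family 1. The genes described here are those whose name in the deposited table is BGLU followed only by a number, apart from BGLU21, BGLU22 and BGLU23. The rule gave 39 of the 32948 genes in the table and 39 of the 42 genes with such a name there. Family members under other names are not counted, such as TGG4 and TGG5, which the RefSeq annotation calls BGLU34 and BGLU35. Messenger RNA was sequenced from wild-type seedlings after 6 h, in 3 libraries from MS medium (a standard plant culture medium) with 20 mM yttrium oxide nanoparticles and 3 from MS medium alone. The series asks how seedlings respond to these particles of a rare-earth metal oxide. The labels do not tell whether the libraries of a group are separate cultures, so the p-values measure the spread between these libraries alone, and that spread could be technical.

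A beta-glucosidase releases glucose from the end of a small glucoside or a sugar chain. Plants store many compounds as inactive glucosides, including hormones, lignin precursors, coumarins and the sulfur-containing glucosinolates of the cabbage family, and a glucosidase frees the active part. Most enzymes of the family use a pair of glutamates, 1 as the acid and base and 1 as the nucleophile. The classical myrosinases, which split glucosinolates, have glutamine at the acid and base position. Some members act in the other direction and transfer glucose onto flavonoids.

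The stretch of coding DNA around the acid and base codon shows which kind of active site each gene encodes, and it is given for the 8 members that passed the test below and for BGLU36. Each line reads 5′ to 3′ on the coding strand of the TAIR10.1 assembly (RefSeq), with the acid and base codon in capitals.
BGLU30: acaacaatcaacGAAccttatataatg
BGLU46: atcacgattaacGAAccaaaccaacat
BGLU27: gtcacactaaacGAAccatgggtgtac
BGLU16: acgacactaaacGAGccatatacaatg
BGLU44: atgacgttcaacGAGccgcgtgtggta
BGLU26: tgcacaatgaatGAGccgtgggtctac
BGLU1: accacgatcaacGAGgctaatatattt
BGLU47: tctactttcaacGAAccaaacgttcaa
BGLU36: atcacattaaatCAGccgtactctctc
Each of the 9 stretches lies within a single exon, on the plus strand. They stand at chr3:22218882-22218908 (BGLU30), chr1:22836942-22836968 (BGLU46), chr3:22207345-22207371 (BGLU27), chr3:22211593-22211619 (BGLU16), chr3:6192594-6192620 (BGLU44), chr2:18365860-18365886 (BGLU26), chr1:17117498-17117524 (BGLU1), chr4:11562466-11562492 (BGLU47) and chr1:19096023-19096049 (BGLU36). All 8 members that passed the test have a glutamate codon, GAA or GAG, there. BGLU26, known as PEN2, is an atypical myrosinase that cleaves indole glucosinolates and has the glutamate of an ordinary glucosidase. Over the 39 genes, 36 had glutamate, BGLU36 had glutamine (codon CAG), and in BGLU2 and BGLU7 the motif was not found by a pattern that was widened after a first, narrower pattern missed the lower-numbered genes. The 36 include BGLU5, whose coding sequence has 1 stop codon in frame and which the deposited table marks as not translated, so its values below are those of a transcript only.

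Levels are given as FPKM, fragments scaled to gene length and library size, so that genes can be compared with each other. Summed over the 39 genes, treated libraries 1, 2 and 3 held 792, 686 and 628 FPKM, and control libraries 1, 2 and 3 held 484, 437 and 496 FPKM. Every treated library was above every control. The mean was 702 ± 83.5 FPKM in treated seedlings and 472 ± 31.4 FPKM in controls (SD, n = 3 each), a ratio of 1.49. BGLU25, BGLU44 and BGLU26 were the 3 highest genes in both groups. BGLU25 alone made up 26.5% of the sum in treated seedlings and 19.7% in controls, and its lowest treated library was level with its highest control. Without BGLU25 the sum was 516 ± 16.8 FPKM in treated seedlings and 379 ± 10.5 FPKM in controls, with no overlap. Most of this difference lay in BGLU44 and BGLU26, with means of 117 and 110 FPKM in treated seedlings and 59.1 and 62.0 FPKM in controls. The sum follows its highest genes and does not show a rise across the family.

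**Figure D1:**
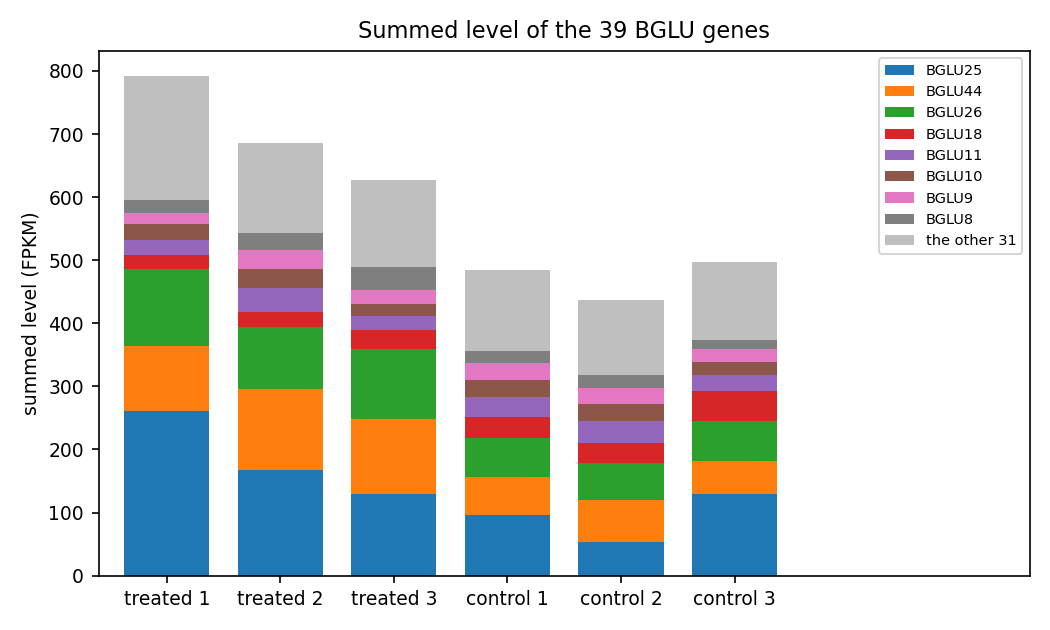
Summed level of the 39 BGLU genes in each library (y axis, FPKM), 1 bar per library, with the 8 genes of highest mean level in their own colours and the other 31 in light grey. The 3 treated bars stand at 792, 686 and 628 FPKM, all above the control bars at 484, 437 and 496 FPKM.

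A gene was tested where its mean over the 6 libraries was at least 1 FPKM, with limma on log2(FPKM + 1) over all 18614 such genes and a Benjamini-Hochberg adjusted p under 0.05 as the threshold. Of the 39 genes 22 were tested. Across all tested genes, 14.5% passed in either direction. Among the tested BGLU genes 8 passed, which were 6 of 22 higher in treated seedlings, against 8.07% of all tested genes, and 2 of 22 lower, against 6.41%. The 6 higher were BGLU30, BGLU46, BGLU27, BGLU16, BGLU44 and BGLU26. The 2 lower were BGLU1 and BGLU47. A gene can reach the minimum mean through its higher group alone and then had to differ. Among the members that passed this was so for BGLU27 alone, without which 5 of 21 were higher. Over all tested genes it was so for 143 of the 1502 called higher and 286 of the 1194 called lower, whose other group averaged under 1 FPKM. BGLU19, which did not pass, also reached the minimum only through its higher group, the controls. The 3 treated and 3 control libraries did not overlap for 11 of the 22, 8 higher and 3 lower in treated seedlings, against 35.6% of all tested genes in either direction. The median difference of the 22 was 0.09 on the log2(FPKM + 1) scale, and that of all tested genes was 0.00087. All differences below are treated minus control on this scale. It makes the change of genes with low levels look smaller than it is.

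**Figure D2:**
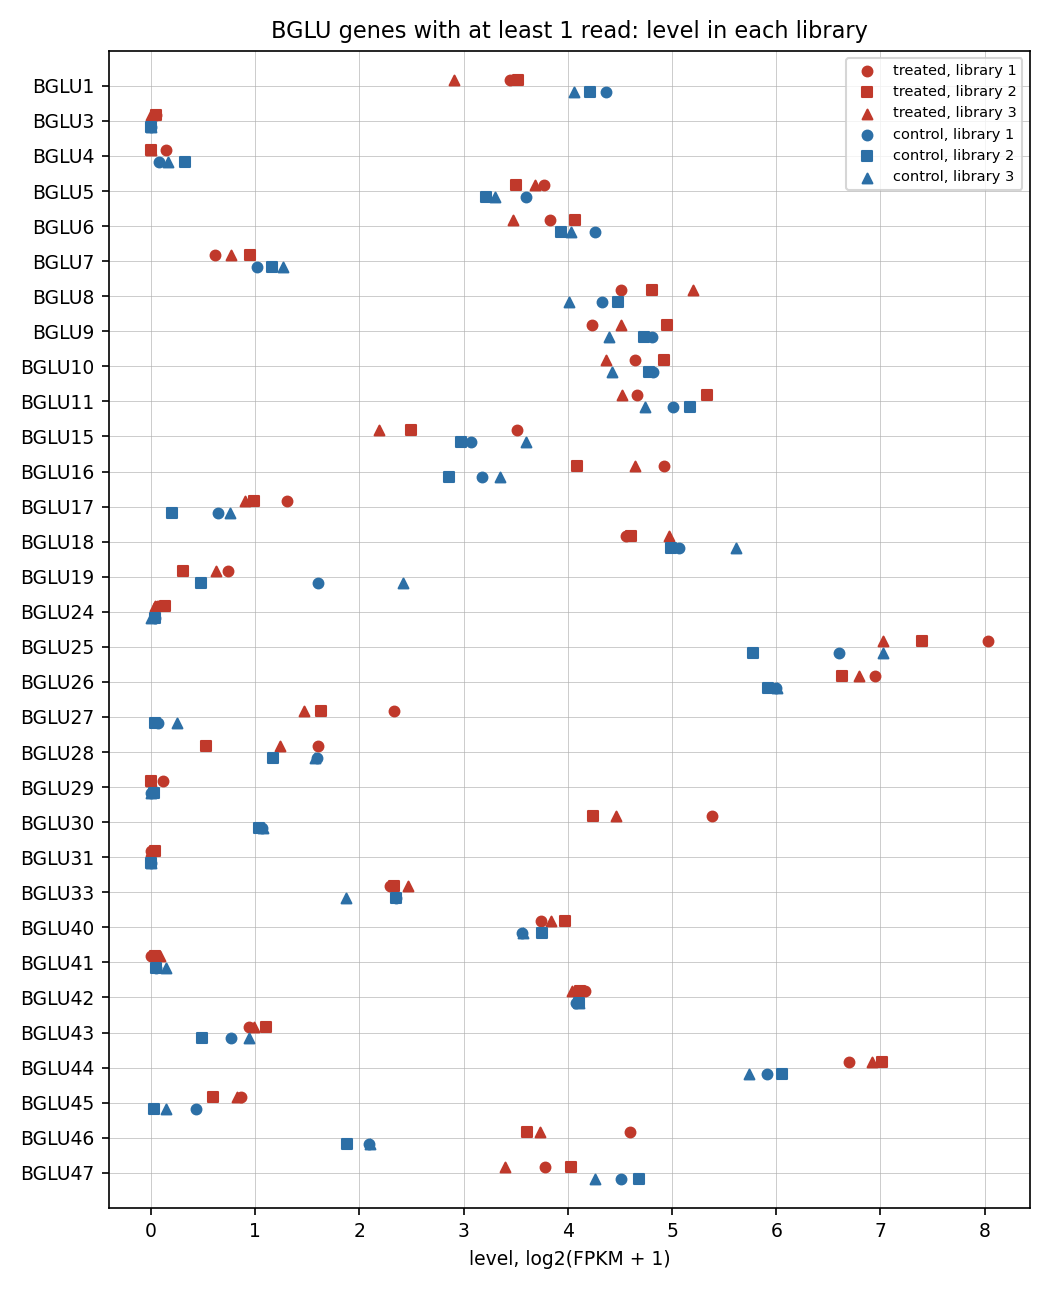
Level of each BGLU gene with at least 1 read (x axis, log2(FPKM + 1)) in each library, with treated libraries in red above control libraries in blue and a marker shape for each library number. BGLU30 shows the widest gap, with treated libraries at 18 to 40.8 FPKM and controls at 1.05 to 1.1 FPKM.

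BGLU30, also known as DIN2, had the largest difference among the tested members on the log2(FPKM + 1) scale. By the ratio of group means BGLU27 was above it, on the few control reads given below. BGLU30 is known as a dark-inducible and senescence-associated gene, and with BGLU28 it takes part in glucosinolate breakdown when sulfur is short. It lay at 40.8, 18 and 21.0 FPKM in treated libraries 1, 2 and 3, against 1.09, 1.05 and 1.1 FPKM in control libraries 1, 2 and 3. The control libraries were close together, and the lowest treated library was far above all of them. The difference was 3.64 (SE 0.273, limma adjusted p = 0.00016), and the ratio of the group means was 24.7. In order of level among the 39 genes it was at place 6 in treated seedlings and place 22 in controls.

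BGLU30 lies beside BGLU27 and BGLU16, whose levels were also higher in every treated library. The 3 genes stand in a row on the plus strand of chromosome 3, between positions 22205931 and 22220824, with 869 and 2657 bases between neighbours and no other annotated gene between them. BGLU16 was at 29.3, 16.0 and 24 FPKM in treated libraries, against 8.02, 6.26 and 9.22 FPKM in controls, a difference of 1.42 (SE 0.222, limma adjusted p = 0.0052). BGLU27 was at 4.05, 2.09 and 1.77 FPKM in treated libraries, against 0.0490, 0.0246 and 0.191 FPKM in controls, and neither gene's groups overlapped. Of all tested genes, 35.6% did not overlap, in either direction. The control values of BGLU27 rest on 2, 1 and 9 reads, with 179, 93 and 70 reads in treated libraries. It reached the minimum mean only through the treated libraries, so its fitted difference of 1.69 (SE 0.231) is a description and its call carries no weight. Neighbours in this row share 63.4% and 63.6% of aligned coding bases, and none of their exon stretches of 50 bases occurs elsewhere in the genome.

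The 300 bases before the annotated start of each of these genes and of BGLU28, the closest relative of BGLU30 by coding sequence, are shown because the first 3 genes were higher in every treated library and BGLU28 did not pass the test. Each reads 5′ to 3′ on the gene's strand in TAIR10.1. Capitals mark matches, on either strand, to the W-box core TTGAC, the SURE core GAGAC of sulfur-responsive promoters, the P1BS element GNATATNC of phosphate-responsive promoters, the G-box CACGTG and the sugar-response element TATCCA. The windows are chr3:22205631-22205930 (BGLU27), chr3:22209726-22210025 (BGLU16), chr3:22216240-22216539 (BGLU30) and chr2:18346006-18346305 (BGLU28), all on the plus strand.
BGLU27: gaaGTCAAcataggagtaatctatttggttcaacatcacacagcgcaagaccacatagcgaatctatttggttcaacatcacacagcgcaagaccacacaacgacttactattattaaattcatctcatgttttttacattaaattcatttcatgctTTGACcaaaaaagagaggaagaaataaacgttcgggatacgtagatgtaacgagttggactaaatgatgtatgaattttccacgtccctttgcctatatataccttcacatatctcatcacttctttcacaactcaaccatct
BGLU16: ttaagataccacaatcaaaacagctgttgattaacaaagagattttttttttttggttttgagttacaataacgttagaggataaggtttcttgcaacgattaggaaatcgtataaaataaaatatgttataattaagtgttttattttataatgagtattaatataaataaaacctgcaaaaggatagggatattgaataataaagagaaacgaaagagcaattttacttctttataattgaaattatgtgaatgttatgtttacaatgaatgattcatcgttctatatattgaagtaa
BGLU30: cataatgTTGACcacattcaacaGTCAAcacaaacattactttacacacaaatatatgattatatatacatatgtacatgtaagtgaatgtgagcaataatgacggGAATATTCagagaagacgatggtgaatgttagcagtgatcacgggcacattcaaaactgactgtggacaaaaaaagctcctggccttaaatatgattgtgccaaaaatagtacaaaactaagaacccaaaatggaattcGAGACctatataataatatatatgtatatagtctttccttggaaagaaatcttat
BGLU28: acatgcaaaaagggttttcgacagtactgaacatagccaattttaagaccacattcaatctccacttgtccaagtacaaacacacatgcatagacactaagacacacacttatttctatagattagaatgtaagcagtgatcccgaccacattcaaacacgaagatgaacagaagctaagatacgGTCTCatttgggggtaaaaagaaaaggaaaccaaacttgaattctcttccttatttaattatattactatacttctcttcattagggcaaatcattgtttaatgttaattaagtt
The BGLU30 window held 2 W-box cores, 1 SURE core 55 bases and 1 P1BS element 194 bases before the start. The BGLU28 window held 1 SURE core at 115 bases, the BGLU27 window held 2 W-box cores, and the BGLU16 window held none of the 5 motifs. Over the promoter windows of 27443 genes, 50.4% held a W-box core, 30.0% a SURE core, 16.2% TATCCA, 7.09% a G-box and 6.5% a P1BS element. Among the 39 BGLU genes the counts were 20, 12, 6, 4 and 3 in the same order. The motifs and windows were picked with expression results in view, and a match is a string of letters, not a shown binding site.

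BGLU28 shares 77.2% of aligned coding bases with BGLU30 and was at 2.04, 0.438 and 1.36 FPKM in treated libraries, against 2.02, 1.25 and 1.97 FPKM in controls. The groups overlapped, and its difference was -0.32 (SE 0.274, limma adjusted p = 0.47). The difference between the genes was itself set against the spread. BGLU28 minus BGLU30 on the log2(FPKM + 1) scale was -3.58 ± 0.308 in treated libraries and 0.39 ± 0.218 in controls (SD, n = 3 each), a shift of -3.97. The exact 2-sided permutation test gave p = 0.1, the smallest that 3 against 3 libraries allow, and an adjusted p of 0.15 over the 12 pairs of neighbours or close relatives compared.

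Most dark and low-sugar markers and part of the sulfur-deficiency markers were higher in the same libraries. Of 14 tested dark and low-sugar markers 11 were higher and 0 lower in treated seedlings, with a median difference of 1.82. ASN1, an asparagine synthetase gene, differed by 5.10 and SEN1 by 3.08, while BCAT2, whose enzyme degrades branched-chain amino acids, differed by 2.11. ASN1 and SEN1 averaged under 1 FPKM in controls and reached the minimum mean only through the treated libraries, which leaves 9 of the 11. The summed level of the 14 was 438, 177 and 406 FPKM in treated libraries 1, 2 and 3, against 59.9, 47.4 and 76.2 FPKM in controls. Treated library 2 was the lowest of the 3 treated libraries for this sum, as it was for BGLU30, BGLU46, BGLU16 and BGLU26, while BGLU27 was lowest in treated library 3 and BGLU44 in treated library 1. Of 9 tested sulfur-deficiency markers 5 were higher and 0 lower, and the other 4 missed the threshold, with a median difference of 1.02. SDI1, a repressor of glucosinolate synthesis, differed by 2.01, SDI2 by 1.24 and the vacuolar sulfate exporter SULTR4;2 by 0.64. The untested root sulfate transporter gene SULTR1;1 went the other way, at 0.0130 ± 0.0225 FPKM in treated seedlings and 0.499 ± 0.253 FPKM in controls (SD, n = 3 each), with no overlap. The part of either group of genes in the BGLU30 difference was not tested.

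**Figure D3:**
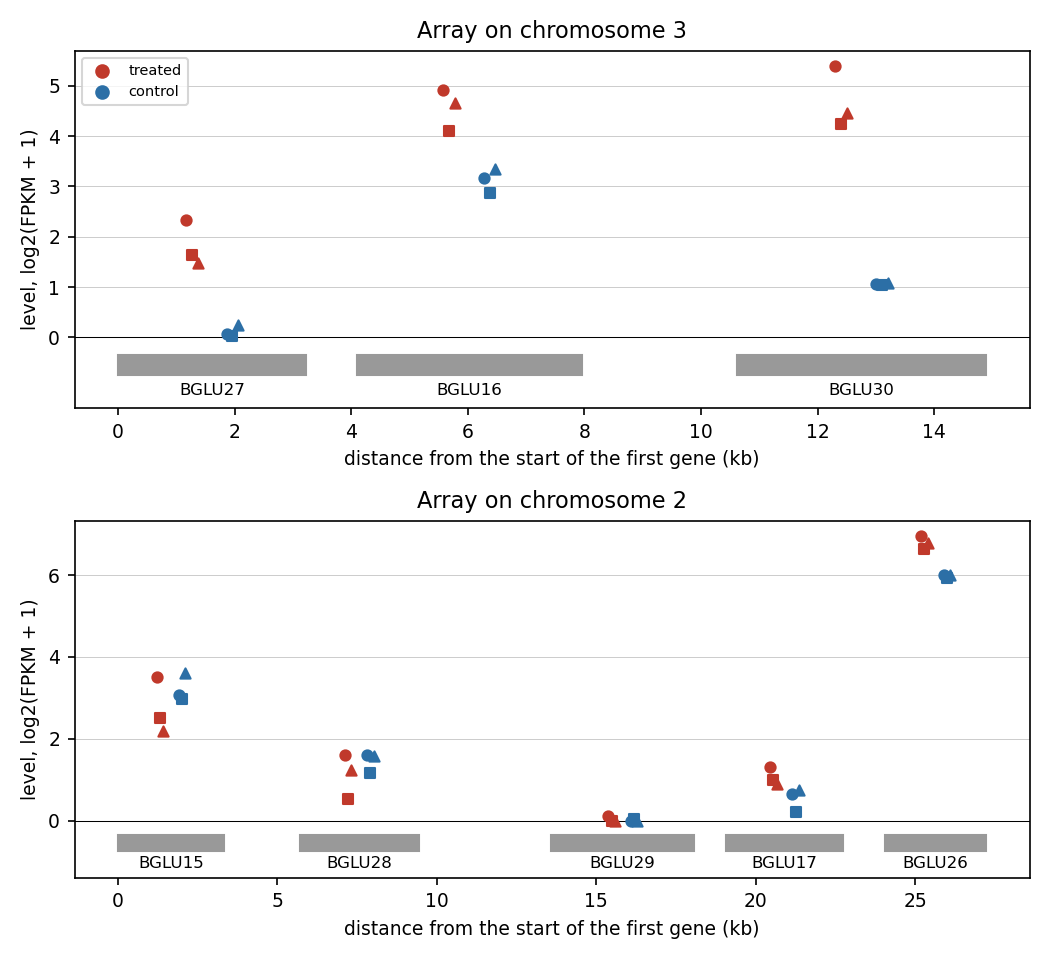
Level of each gene in the rows on chromosome 3 (top) and chromosome 2 (bottom), y axis log2(FPKM + 1), drawn over the position of the gene from the start of the first gene (x axis, kb), with treated libraries in red left of control libraries in blue and 1 marker shape per library number. All 3 genes of the chromosome 3 row are higher in every treated library than in every control. Of all tested genes, 35.6% did not overlap, in either direction. BGLU27 reached the minimum mean only through the treated libraries. In the chromosome 2 row BGLU26 alone passed the test, and BGLU29 and BGLU17 were not tested. BGLU17 was also higher in every treated library.

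BGLU26, the atypical myrosinase PEN2 of resistance to fungal entry, was higher in treated seedlings. Its levels were 122, 98.4 and 110 FPKM in treated libraries, against 63.0, 59.7 and 63.3 FPKM in controls. The groups did not overlap, and the difference was 0.81 (SE 0.113, limma adjusted p = 0.0023), a ratio of 1.78. It is the last of 5 members in a row on chromosome 2, between positions 18340602 and 18367835, in the order BGLU15, BGLU28, BGLU29, BGLU17 and BGLU26. Of the other 4, BGLU15 and BGLU28 did not pass the test. BGLU29, with 5 reads in all 6 libraries together, and BGLU17, with a mean under 1 FPKM, were not tested. BGLU17 was at 1.46, 0.983 and 0.862 FPKM in treated libraries and 0.557, 0.150 and 0.686 FPKM in controls, with no overlap. BGLU15, which hydrolyses flavonol glycosides, was at 10.4, 4.63 and 3.56 FPKM in treated libraries and 7.38, 6.88 and 11.1 FPKM in controls, with overlapping groups.

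Other genes of glucosinolate turnover went both ways. Of 13 tested genes apart from PEN2, 3 were higher and 4 lower in treated seedlings. The lowest adjusted p belonged to the nitrile specifier gene NSP1 with a difference of -1.50, the nitrilase gene NIT2 with 1.01 and NSP4 with -1.34. PEN3, which encodes the transporter that acts with PEN2, differed by 0.79 (SE 0.169, limma adjusted p = 0.017). Of 5 other tested family 1 glycosidase genes, the root myrosinase genes TGG5 and TGG4 were lower, by -1.51 and -1.35, and none was higher; both are counted among the 4 above, and both reached the minimum mean only through the controls. The leaf myrosinase gene TGG1 was at 607 ± 114 FPKM in treated seedlings and 698 ± 88.9 FPKM in controls (SD, n = 3 each), with a limma adjusted p of 0.42.

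BGLU46 and BGLU47 moved in opposite directions. They form with BGLU45 a group of sequence relatives, of which BGLU45 and BGLU46 encode enzymes that hydrolyse glucosides of monolignols, the building blocks of lignin. BGLU46 was at 23.1, 11.2 and 12.3 FPKM in treated libraries, against 3.26, 2.67 and 3.30 FPKM in controls, a difference of 1.95 (SE 0.250, limma adjusted p = 0.0021) and a ratio of 5.04. BGLU47 was at 12.8, 15.4 and 9.55 FPKM in treated libraries, against 21.7, 24.7 and 18.2 FPKM in controls, a difference of -0.75 (SE 0.179, limma adjusted p = 0.027). Neither gene's groups overlapped. The BGLU47 call was lost without control library 1 (adjusted p = 0.099), control library 2 (0.099), treated library 1 (0.071) or treated library 3 (0.061). BGLU46 minus BGLU47 was 0.24 ± 0.622 in treated libraries and -2.46 ± 0.330 in controls (SD, n = 3 each), a shift of 2.70. The exact permutation p was 0.1, again the smallest possible and shared with other pairs, and the adjusted p was 0.15 over the 12 pairs. Of the span of BGLU47, 15.4% lies within a gene on the other strand, AT4G21770, which was at 12.3 ± 0.913 FPKM in treated seedlings and 13.8 ± 1.39 FPKM in controls, and whether reads were counted by strand is not given in the sources used here.

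BGLU45 lies next to BGLU46 on chromosome 1, with 349 bases between them and 82.4% of aligned coding bases shared. Its mean was under 1 FPKM, so it was not tested, and it was at 0.818, 0.510 and 0.765 FPKM in treated libraries and 0.35, 0.0207 and 0.107 FPKM in controls. Those groups did not overlap. With no filter on low values it passed with a difference of 0.56 (limma adjusted p = 0.037). The values of BGLU45 rest on few reads, 43, 27 and 36 in treated libraries and 17, 1 and 6 in controls. Of 16 tested genes of monolignol synthesis and glucosylation 1 was higher and 3 were lower in treated seedlings, with a median of -0.06. UGT72E1 and UGT72E3, which encode glucosyltransferases of monolignols and their aldehydes, differed by -1.38 and -0.79, and CAD5, a cinnamyl alcohol dehydrogenase gene, by 0.46. Of 7 tested xylem markers 2 were lower, XCP1 by -1.01 and CESA8, which averaged under 1 FPKM in treated seedlings, by -0.59, and 0 were higher.

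BGLU44 encodes an enzyme known to split mannosides and was the second most abundant member in treated seedlings. It was at 103, 128 and 120 FPKM in treated libraries, against 59.3, 65.6 and 52.4 FPKM in controls. The groups did not overlap, and the difference was 0.97 (SE 0.129, limma adjusted p = 0.0019), a ratio of 1.98. Its neighbour BGLU43, which shares 84.1% of aligned coding bases, was not tested, at 0.924, 1.14 and 0.977 FPKM in treated libraries and 0.703, 0.407 and 0.912 FPKM in controls. BGLU42, which releases coumarins from their glucosides in roots, was at 17, 16.4 and 15.4 FPKM in treated libraries and 15.9, 16.2 and 16.2 FPKM in controls, with a difference of 0.01 (SE 0.0965, limma adjusted p = 0.95). Of 4 tested genes of coumarin synthesis and export 2 were lower and 0 higher, the scopoletin synthesis gene F6H1 by -2.33 and the exporter gene ABCG37 by -1.79. BGLU40 was at 12.4, 14.7 and 13.3 FPKM in treated libraries and 10.8, 12.5 and 10.9 FPKM in controls, with overlapping groups.

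**Figure D4:**
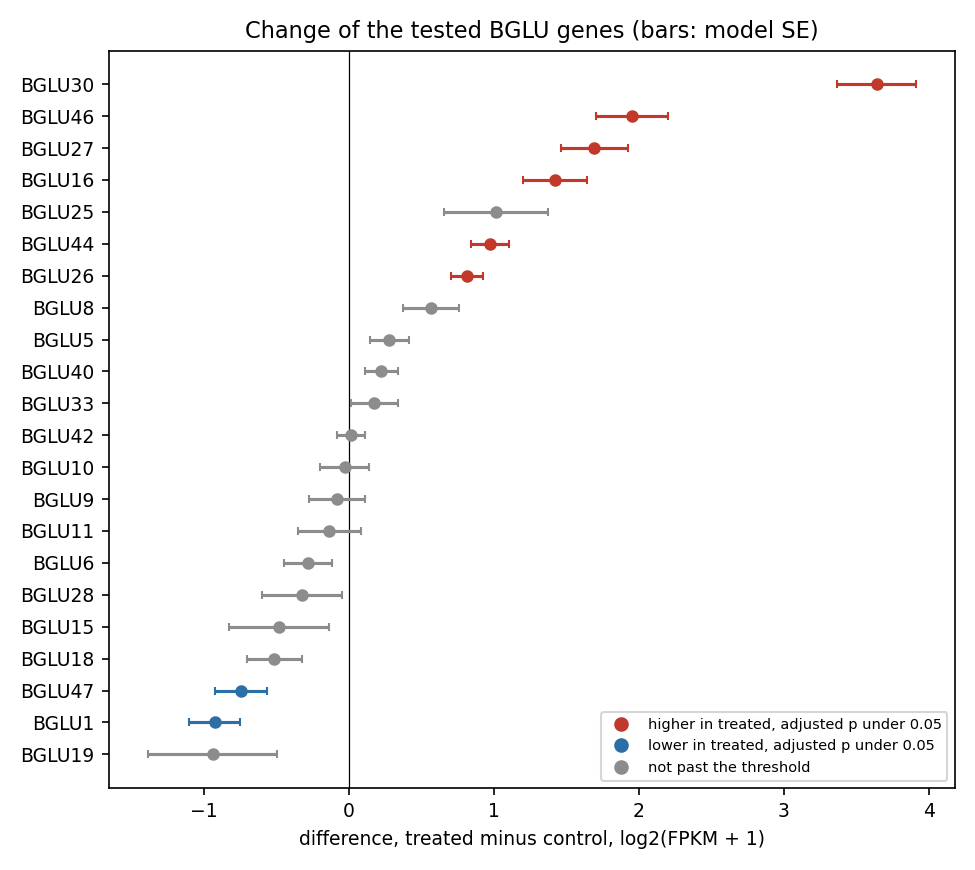
Difference of the 22 tested BGLU genes (x axis, log2(FPKM + 1), treated minus control), with bars for the model's standard error and colours for the call. BGLU30 stands at 3.64, the other 5 genes called higher lie between 0.81 and 1.95, and BGLU47 and BGLU1 lie at -0.75 and -0.93.

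BGLU1 to BGLU11 are sequence relatives, of which BGLU10 and, in some accessions, BGLU6 transfer glucose onto flavonoids. Their sum was 139 ± 21.3 FPKM in treated seedlings and 142 ± 17.2 FPKM in controls (SD, n = 3 each). Of 7 tested, BGLU1 alone passed. It was at 9.86, 10.5 and 6.48 FPKM in treated libraries, against 19.7, 17.6 and 15.7 FPKM in controls, and the groups did not overlap. The difference was -0.93 (SE 0.175, limma adjusted p = 0.010), and without control library 1 the call was lost (adjusted p = 0.054).

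BGLU8 was at 21.7, 27.0 and 35.8 FPKM in treated libraries and 19.0, 21.3 and 15.1 FPKM in controls, with no overlap and a difference of 0.57 (SE 0.194, limma adjusted p = 0.092), which passed without treated library 1 (0.73, adjusted p = 0.044). BGLU10 was at 23.9, 29.3 and 19.6 FPKM in treated libraries and 27.1, 26.5 and 20.4 FPKM in controls. BGLU9, with 94.3% of aligned coding bases shared with BGLU10, was at 17.8, 29.9 and 21.9 FPKM in treated libraries and 27.1, 25.6 and 20.1 FPKM in controls. The groups of both overlapped, and reads of this pair can be split between them, since 12.6% of the exon stretches of 50 bases of BGLU9 and 14.2% of those of BGLU10 occur elsewhere in the genome. BGLU11 was at 24.3, 39.3 and 22 FPKM in treated libraries and 31.3, 35.0 and 25.8 FPKM in controls. BGLU6 was at 13.2, 15.8 and 10.12 FPKM in treated libraries and 18.2, 14.2 and 15.3 FPKM in controls. BGLU5 was at 12.6, 10.3 and 11.8 FPKM in treated libraries and 11.1, 8.30 and 8.87 FPKM in controls. BGLU5, BGLU6 and BGLU11 overlapped between groups, with differences of 0.28, -0.28 and -0.14. Of 17 tested genes of flavonol and anthocyanin synthesis 2 were lower in treated seedlings, F3'H by -1.15 and the regulator gene MYB12 by -0.78, and 0 were higher. MYB12 averaged under 1 FPKM in treated seedlings.

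BGLU18 and BGLU33 encode enzymes that release the hormone abscisic acid from its glucose ester, BGLU18 in ER bodies (spindle-shaped compartments of the endoplasmic reticulum) and BGLU33 in the vacuole. BGLU18 was at 22.5, 23.4 and 30.3 FPKM in treated libraries, against 32.6, 30.8 and 48.1 FPKM in controls. The groups did not overlap, but the difference of -0.51 missed the threshold (SE 0.189, limma adjusted p = 0.11). BGLU33 was at 3.90, 4.04 and 4.54 FPKM in treated libraries and 4.09, 4.10 and 2.66 FPKM in controls, with overlapping groups. Of 13 tested genes of abscisic acid synthesis, conjugation and turnover 2 were higher and 0 lower, CYP707A3, which encodes an abscisic acid hydroxylase, by 1.81 and UGT71B7, an abscisic acid glucosyltransferase gene, by 0.65.

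BGLU25, the most abundant member, belongs by sequence to the same group as BGLU18. It was at 261, 167 and 129.3 FPKM in treated libraries and 96.4, 53.8 and 128.9 FPKM in controls. Treated library 3 and control library 3 nearly coincided, and the difference of 1.02 missed the threshold (SE 0.359, limma adjusted p = 0.11). BGLU19, of the same group, was at 0.671, 0.238 and 0.536 FPKM in treated libraries and 2.03, 0.391 and 4.36 FPKM in controls, with overlapping groups and a difference of -0.94 (SE 0.447, limma adjusted p = 0.21). It passed without control library 2 (-1.45, limma adjusted p = 0.017). BGLU19 reached the minimum mean only through the controls, however, so that pass carries no weight. The high control libraries of BGLU19, 1 and 3, were also those with most seed storage messenger RNA. Its 5 markers summed to 5.12, 0.759 and 1.66 FPKM in treated libraries and 37.7, 13.5 and 56.2 FPKM in controls. BGLU19 put the libraries of both groups in the same order as these sums, on 28, 10 and 20 reads in treated libraries 1, 2 and 3. BGLU25 and BGLU18 put the control libraries in the same order as these sums, but not the treated libraries. All 3 tested seed storage markers were lower in treated seedlings, CRA1 by -3.15, CRU3 by -2.39 and OLEO2 by -1.75, of which CRU3 and OLEO2 reached the minimum mean only through the controls. The part of seed storage messenger RNA in the values of BGLU19, BGLU25 or BGLU18 was not tested.

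The 3 ER body genes that the rule leaves out, related by sequence to BGLU18, were all lower in treated seedlings (limma adjusted p of 2.04e-05 for BGLU23, 0.00028 for BGLU22 and 0.00037 for BGLU21), while of the 3 tested members of that group none passed. BGLU23, also called PYK10, was at 479 ± 33.5 FPKM in treated seedlings and 2135 ± 276 FPKM in controls (SD, n = 3 each), a difference of -2.15. BGLU22 was at 5.03 ± 1.70 FPKM in treated seedlings and 68.2 ± 23.5 FPKM in controls, a difference of -3.50. BGLU21 was at 1.61 ± 0.632 FPKM in treated seedlings and 16.0 ± 4.98 FPKM in controls, a difference of -2.70. Counted with their partners, 8 of 9 tested ER body genes were lower and 0 higher, and the lowest adjusted p after BGLU23 belonged to NAI2 at -1.70 and PBP1 at -1.91.

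Markers of root tissue were lower in the same libraries. Of 9 tested markers 8 were lower and 0 higher, CASP1 by -3.16, CASP2 by -1.95 and EXPA7 by -1.78. Of the 8, 7 reached the minimum mean only through the controls and so had to be lower. The exception was the phosphate exporter gene PHO1, at 13.9 ± 2.32 FPKM in treated seedlings and 21.1 ± 1.71 FPKM in controls (SD, n = 3 each). The 11 markers summed to 15 to 18.1 FPKM in treated libraries and 50.2 to 51.4 FPKM in controls, and none was at 0 in all libraries. PHO1 made up most of the treated sums, and without it the other 10 summed to 3.23, 1.69 and 1.49 FPKM in treated libraries and 30.7, 28.5 and 30.1 FPKM in controls. In bulk seedlings fewer cells of a type and less messenger RNA per cell cannot be told apart. Of 8 tested markers of shoot epidermis and guard cells 1 was lower (KAT1, -0.64), and 1 of 5 mesophyll markers was higher (LHCB2.1, 0.54), with mesophyll sums of 14375 to 17786 FPKM in treated libraries and 13787 to 16063 FPKM in controls. The part of root tissue in the falls of BGLU1 and BGLU47, or of any other member, was not tested.

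The 17 untested members averaged under 1 FPKM. Of these, 10 had at least 1 read, and among them the groups did not overlap for 5, against 19.8% of all genes under 1 FPKM with a read. These were BGLU17, BGLU24, BGLU43 and BGLU45, higher in treated libraries, and BGLU7, lower, at 0.531, 0.936 and 0.702 FPKM in treated libraries and 1.02, 1.23 and 1.40 FPKM in controls. The values of BGLU24 rest on 9 reads in all. Treated library 3 and control libraries 1 and 2 held 1 read each, so only the scaling to library size sets them apart. BGLU3, BGLU4, BGLU29, BGLU31 and BGLU41 had 1 to 20 reads in all and overlapping groups. No read was assigned in any library to BGLU2, BGLU12, BGLU13, BGLU14, BGLU20, BGLU32 or BGLU36. Where no read was counted, up to 3 reads remain possible, and for these genes that limit was 0.0808 FPKM (BGLU20) to 0.134 FPKM (BGLU2) in the library with the highest limit, covering counting error only. It does not cover reads that fit more than 1 place. Of the exon stretches of 50 bases, 20.0% of those of BGLU12 and 17.95% of those of BGLU13 occur elsewhere in the genome. BGLU36 is the gene with the glutamine codon.

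The authors' deposited table of 2104 genes lists 6 of the 39 members. In the authors' deposited table BGLU27 has a log2 fold change of 4.85, BGLU30 of 4.62, BGLU46 of 2.33, BGLU45 of 2.14, BGLU16 of 1.56 and BGLU19 of -2.23, all treated over control. BGLU44, BGLU26, BGLU1 and BGLU47 are not among its genes, all of which have an absolute log2 fold change above 1.

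Depth was similar in the 6 libraries, at 19314683 to 23374306 reads recovered from the deposited values. On the leading axis of a principal component analysis of log2(FPKM + 1), which took up 68.4% of the variance, treated library 2 was closest to the controls, at 25.1, with treated libraries 1 and 3 at 48.2 and 40.7. Without treated library 2 the members called were the same 8.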

How the data were processed

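The authors deposited FPKM values per gene and library. Per the submitters' processing notes, the tools and builds included HISAT2 2.0.5 and TAIR10, with no role given, and no source used here gives the counter, annotation release, strand setting or filters. The authors' deposited comparison table holds each library's signal (reads over a size factor), a log2 fold change, p-values and adjusted p-values, and its fold changes are printed as deposited. The BGLU genes, gene lists and motifs were chosen with earlier results of these data known.

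Genes with a mean of at least 1 FPKM entered a limma 3.58.1 fit (R 4.3.3) on log2(FPKM + 1) with a term for treatment (lmFit, then robust eBayes with a trend, 2-sided), and the script was tested on simulated data. Multiplied by gene length, 100% of FPKM values were whole multiples (within 0.01) of a step particular to each library, so reads were recovered for edgeR 4.0.16 and DESeq2 1.42.0 as alternatives. A count of 0 allows 3 reads. This limit covers counting error alone, since PCR copies of a molecule are not independent.

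Every BGLU gene past the threshold or with a mean of at least 10 FPKM has its values printed; of each list, up to 3 genes past the threshold with the lowest adjusted p are named, and PEN3, TGG1 and other genes beyond this were chosen after their values were seen. The lists hold 145 genes in 14 groups, written by gene ID and all found. Coordinates of all 39 members in the table equalled those of TAIR10.1, from which sequences were read; coding sequences were aligned pairwise, and 50-base exon stretches were searched in the whole genome. Protein sequences are not used here.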

Additional observations from a re-analysis of the deposited data

How the results depend on the processing

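Of the 6 genes called higher, the 5 apart from BGLU27 (BGLU16, BGLU26, BGLU30, BGLU44, BGLU46) passed under each of the 15 alternatives. BGLU27 was filtered out at a minimum mean of 5 FPKM and passed in the others. Where the minimum mean was 1 FPKM its passes carry no weight, since it reached that mean only through the treated libraries. No call reversed. The number of members called lower was 2. With DESeq2 it was 4, with BGLU18 and BGLU19 added (and BGLU8 among the higher), though BGLU19 reached the minimum mean only through the controls. When each library was left out in turn, between 0 (without control library 1) and 2 members were called lower, with 1 left without treated library 3. The number of all genes called was 2696, and 1393 (without control library 1) to 3417 (without treated library 2) with a library left out, with 1580 called without control library 2. edgeR called 2944 genes, DESeq2 3624, and edgeR on genes with at least 10 reads, an alternative chosen after seeing the data, 3577. BGLU45 was added with no filter and in that last fit, and BGLU15 without treated library 1. The cause was not tested.

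Libraries with the same number correlated in their deviations from the group means by 0.0861, 0.383 and 0.101, and libraries with unlike numbers by -0.379 to 0.302. These values do not settle whether the numbers pair the samples. The main fit did not pair them. With the replicate block 3256 genes were called, and the BGLU calls kept all 8 and added BGLU18 (-0.51, adjusted p = 0.019), for 6 higher and 3 lower. Depth limits what can be said of the 7 members with no read.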
